A study of Homo sapiens with 18 samples.

Results

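The genes described here are 9 that make, store, take back or break down catecholamines: TH, GCH1, DDC, DBH, SLC18A1, SLC18A2, SLC6A2, SLC6A3 and MAOA. They were chosen by their place in the pathway, and every probe set that the platform annotation pairs with exactly 1 of them was kept, which gave 18 probe sets of 22283 on the array and 9 genes of 11963 with a probe set of their own. SLC6A2 has 7 of these probe sets, MAOA 3, DDC 2 and each of the other 6 genes 1. The cells were SH-SY5Y, an established human neuroblastoma line of sympathetic origin, either left untreated or exposed to sarin, an organophosphate that blocks acetylcholinesterase, at 5 ppm. RNA was taken at 3, 24 and 48 h, and each of the 6 groups of treatment and time has 3 arrays. All groups are of this 1 line, untreated cells of the same time are the controls, and the labels name no genetic change. The labels name 6 flasks for a group but do not tie a flask to an array, so p-values measure the spread between arrays, which may be technical.

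Catecholamines are made in steps. Tyrosine hydroxylase (TH) turns tyrosine into L-DOPA with tetrahydrobiopterin as cofactor, whose synthesis starts with GTP cyclohydrolase (GCH1). DOPA decarboxylase (DDC) makes dopamine in the cytosol, the vesicular monoamine transporters (SLC18A1 and SLC18A2) load it into vesicles, and dopamine beta-hydroxylase (DBH), a copper enzyme fed by ascorbate, makes noradrenaline there. After release the noradrenaline transporter (SLC6A2) and the dopamine transporter (SLC6A3) take the amines back into the cell, where monoamine oxidase A (MAOA) on mitochondria breaks them down. SLC18A1 is the vesicular transporter typical of adrenal and endocrine cells, and SLC18A2 that of neurons.

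The probe sets of DBH and DDC are the members with the largest falls at 48 h of those measured above background in both groups, so the stretches before their starts are shown, with that of SLC18A2, whose RNA signal lay mostly below background. These are the 250 bases before the start that RefSeq lists on GRCh38.p14, each 5′ to 3′ on the gene's own strand. Capitals mark TGACGTC, the core of a cyclic AMP response element, and ATTA, the core that homeodomain factors such as PHOX2A recognise, each searched on both strands, and overlapping matches share 1 run of capitals. DBH lies at chr9:133636113-133636362 on the plus strand, SLC18A2 at chr10:117240864-117241113 on the plus strand, and the 2 starts listed for DDC at chr7:50565406-50565655 and chr7:50561072-50561321 on the minus strand.
DBH: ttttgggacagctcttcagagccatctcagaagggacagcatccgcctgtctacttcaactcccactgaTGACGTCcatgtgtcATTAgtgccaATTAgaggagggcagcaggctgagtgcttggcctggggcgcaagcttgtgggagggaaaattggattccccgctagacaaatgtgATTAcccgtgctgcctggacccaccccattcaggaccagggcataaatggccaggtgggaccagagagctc
DDC, upstream start: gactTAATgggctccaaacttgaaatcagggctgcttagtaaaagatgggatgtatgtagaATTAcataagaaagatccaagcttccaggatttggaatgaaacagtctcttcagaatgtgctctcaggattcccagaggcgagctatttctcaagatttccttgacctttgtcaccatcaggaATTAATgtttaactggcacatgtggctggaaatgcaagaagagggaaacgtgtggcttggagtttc
DDC, downstream start: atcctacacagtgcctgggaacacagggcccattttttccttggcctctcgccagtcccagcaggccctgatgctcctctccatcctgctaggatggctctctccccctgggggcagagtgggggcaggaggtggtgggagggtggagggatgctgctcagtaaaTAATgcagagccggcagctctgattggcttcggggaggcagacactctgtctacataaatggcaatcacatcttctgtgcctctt
SLC18A2: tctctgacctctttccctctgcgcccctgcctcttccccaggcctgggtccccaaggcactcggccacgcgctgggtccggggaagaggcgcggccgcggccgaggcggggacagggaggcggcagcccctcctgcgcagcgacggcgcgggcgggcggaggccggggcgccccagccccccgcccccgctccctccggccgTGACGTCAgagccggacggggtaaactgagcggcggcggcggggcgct
The DBH stretch holds 1 TGACGTC, at 181 to 175 bases before the start, and 3 ATTA, at 166 to 163, 156 to 153 and 71 to 68 bases before it. The SLC18A2 stretch holds 1 TGACGTC followed by A, at 48 to 41 bases before the start, and 0 ATTA, and both DDC stretches hold 0 TGACGTC, with ATTA in 3 runs and 1 run of capitals. Over 35116 listed promoters the same window held TGACGTC in 3.12% and ATTA in 47.4%. The promoters searched here cover 4 of the 9 genes with 5 starts, the remaining one being MAOA, whose window holds 1 ATTA and 0 TGACGTC. No stretch was read for TH, GCH1, SLC18A1, SLC6A2 or SLC6A3. For SLC18A1 this does not mean that no start is listed. The matches are given as a description of these letters.

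Before the results, 1 group has to be set apart. The 3 arrays of sarin at 48 h correlated with one another at r 0.86 to 0.87 over log2 signal and with the other 15 at 0.66 to 0.76, against 0.91 to 0.97 among those 15. Their 3′ to 5′ signal ratio was 2.15 to 2.30 for GAPDH and 3.68 to 4.67 for ACTB, against 0.696 to 1.17 and 0.790 to 1.64 on the other 15, a ratio that rises when the 5′ end of an RNA gives less signal. Background, taken on each array as the 90th percentile of 27 bacterial probe sets with no RNA added, was 411 to 443 there and 97.0 to 183 elsewhere. At 48 h, 63.2% of the 22215 probe sets tested passed the threshold, so results at 48 h describe these 3 arrays as they stand, and the part of RNA quality in them was not tested. As a check of the cell label, all 8 noradrenergic marker genes with a probe set (PHOX2A, GATA2, GATA3, HAND2, ISL1, CHGA, CHGB and DBH) were above background on every control array, while S100B and SOX10, which define Schwann cells, were above it on 0 of 9 control arrays. Of the other glial markers, ERBB3 was above background on 8 and 9 of 9 control arrays with its 2 probe sets and GFAP on 0 and 6 of 9.

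In the 9 untreated arrays the pathway was measured unevenly. GCH1, DBH and SLC18A1, DDC with both of its probe sets, MAOA with probe set 212741_at and SLC6A2 with 4 of its 7 probe sets (215715_at, 216611_s_at, 217621_at and 210353_s_at) were above background on 9 of 9 control arrays. SLC6A3 was above it on 6 of 9 and SLC18A2 on 4 of 9, and the other 2 MAOA probe sets, 204388_s_at and 204389_at, on 5 and 2 of 9. TH, which starts the pathway, was above background on 0 of 18 arrays. Its signal was 12.6, 14.5 and 30.2 in the controls at 3 h, 130, 40.7 and 65.1 at 24 h and 144, 41.5 and 84.9 at 48 h. It was 32.6, 43.9 and 9.9 with sarin at 3 h, 88.0, 67.0 and 15.2 at 24 h and 104, 368 and 98.6 at 48 h. The highest of these, 368 with sarin at 48 h, still lay under the background of its own array. These values are not well above background, and no direction is drawn for TH.

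**Figure D1:**
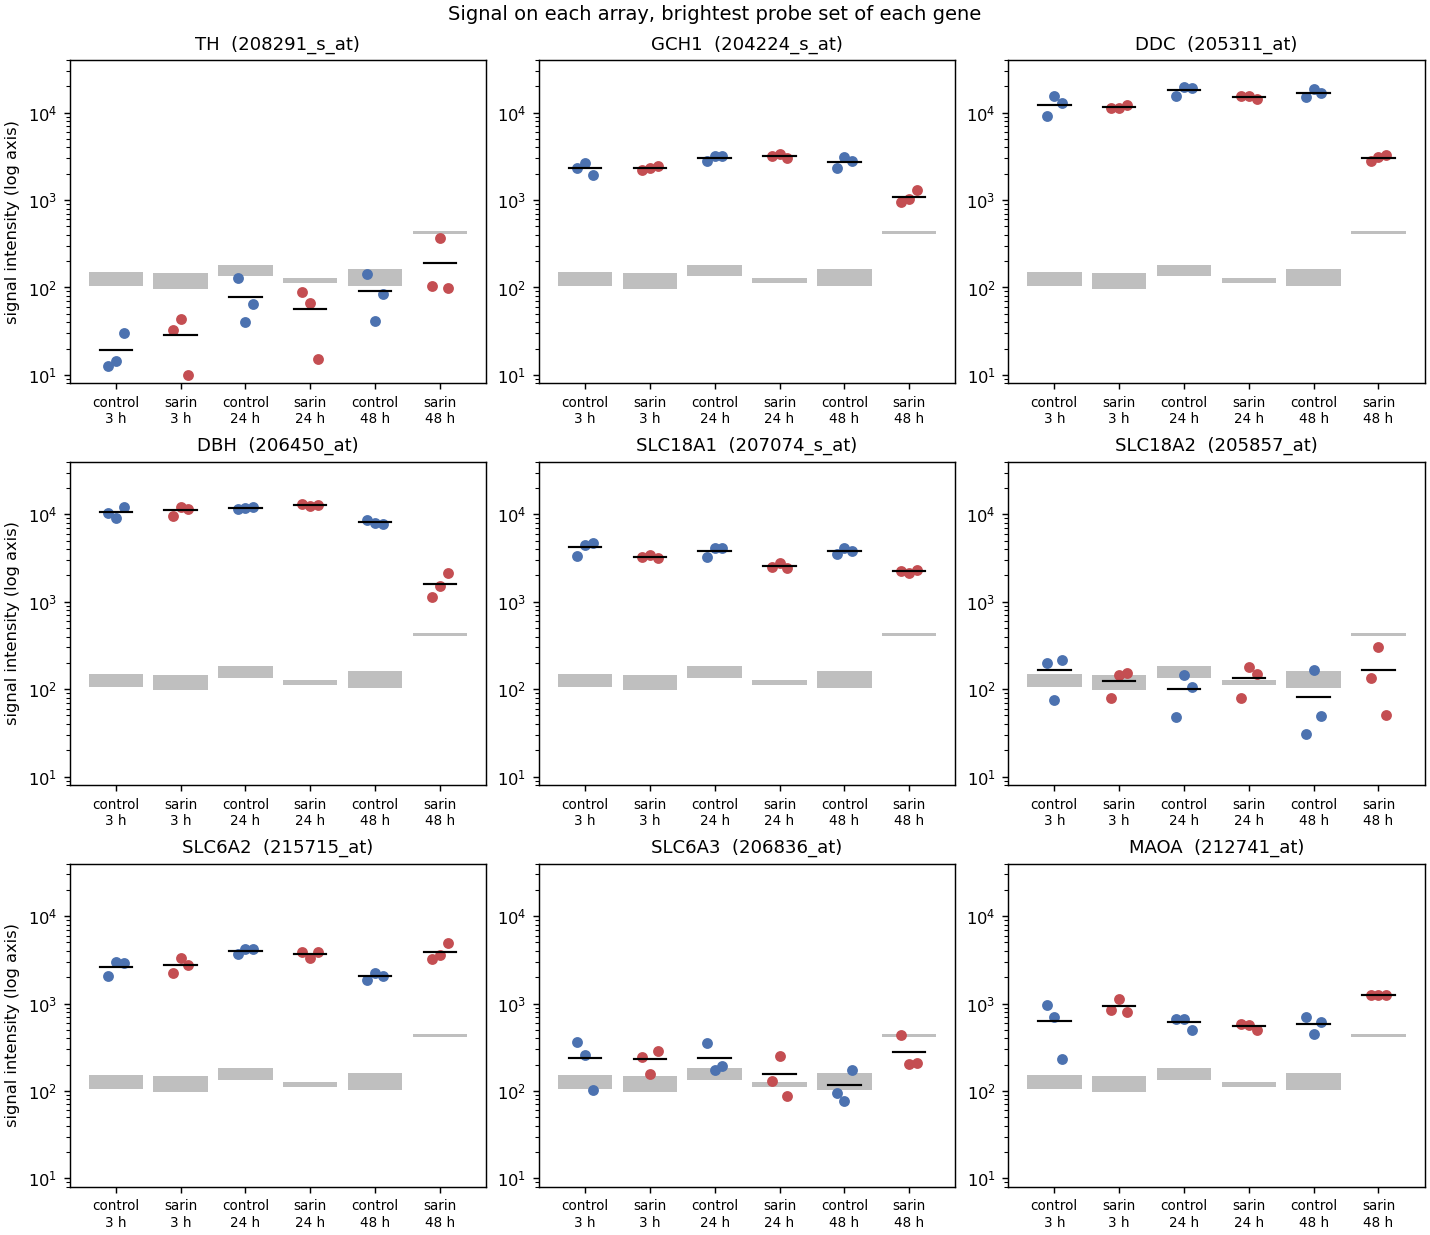
Signal intensity (log axis) of the brightest probe set of each of the 9 genes on all 18 arrays, with untreated arrays in blue, sarin arrays in red, a black line at each group mean and a grey band over the range of background on that group's arrays. TH lies in or under the grey band in all 6 groups, whereas DDC and DBH lie far above it and drop with sarin at 48 h.

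Sarin at 3 h gave no call. Of the 18 probe sets, 0 passed an adjusted p of 0.05 in limma, as did 0 of all 22215 (percent called 0), and 3 had an unadjusted p under 0.05, as did 1941 of all. DBH gave 10462, 9192 and 12133 in the 3 controls and 9718, 12285 and 11504 with sarin, so the groups overlapped. The log2 difference was 0.08 ± 0.18 (SE) and a 95% interval of -0.29 to 0.45. DDC (205311_at) gave 9062, 15353 and 12809 in controls and 11310, 11251 and 12313 with sarin, a difference of -0.06 ± 0.17 with an interval of -0.41 to 0.29. GCH1, at 2337, 2670 and 1932 against 2223, 2325 and 2479, differed by 0.03 ± 0.15, with an interval of -0.29 to 0.35. For these 3 enzymes the interval leaves out a halving or a doubling, which would be a log2 change of 1. The arrays of the 2 groups overlapped for each of the 18 probe sets, whereas they did not overlap for 13% of all probe sets.

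At 24 h a single member passed the test. SLC18A1, which loads vesicles, was at 3278, 4144 and 4101 in the controls and at 2509, 2778 and 2438 with sarin, so that every sarin array lay below every control array. Its log2 signal fell by 0.57 ± 0.14 (SE; limma adjusted p = 0.0298), from a mean of 3841 ± 488 to 2575 ± 179 (SD, n = 3). Of all probe sets, 3.37% were called at 24 h, 1.75% lower and 1.63% higher, so 1 called member of 18 is near that background. In bulk RNA, fewer cells of a type and less RNA per cell cannot be told apart. Beside it, the summed signal of 12 marker genes of substrate-adherent cells, a second cell form in cultures of this kind, ranged from 64730 to 67096 in the 24 h controls and from 42426 to 44062 with sarin, with 10 to 12 and 10 to 11 of its genes above background. That sum rests mostly on VIM and LGALS1, with means of 29694 and 25180 over the 9 control arrays. Of its 34 probe sets, 4 were called lower and 0 higher at 24 h, with a median change of -0.54 against -0.16 over all probe sets. The noradrenergic markers summed to 85123 to 93843 in those controls and to 105213 to 106056 with sarin. Of the 12 probe sets of that list 3 were called higher and 1 lower at 24 h, with a median change of 0.11. The GAPDH ratio was 0.811 to 0.941 and 1.05 to 1.17 in the same groups, and the part of these shifts in the SLC18A1 result was not tested.

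The SLC18A1 difference had the same sign at each time. At 3 h the controls gave 3359, 4501 and 4742 and the sarin arrays 3221, 3432 and 3155, a difference of -0.35 ± 0.14 that was not called (adjusted p = 0.484 in limma), and the lowest control lay within the range of the sarin arrays. At 48 h the controls gave 3557, 4122 and 3860 and the sarin arrays 2264, 2154 and 2303, again with no overlap, and log2 signal fell by 0.77 ± 0.14 (adjusted p = 0.000119). The effect at 24 h minus that at 3 h was -0.22 ± 0.20 (adjusted p = 0.77), so the 2 times were not shown to differ. The 24 h call was lost when any of 5 of the 6 arrays compared was left out, all but control replicate 1 (values -0.62 to -0.51, adjusted p 0.0693 to 0.142), and with arrays centred on their median (-0.28, adjusted p = 0.324) or scaled to the spiked-in bacterial RNA (-0.53, adjusted p = 0.634).

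The synthesis enzymes gave no call at 24 h. DDC (205311_at) was at 15647, 19824 and 19271 in the controls and 15386, 15511 and 14306 with sarin, all sarin arrays below all controls, with a difference of -0.27 ± 0.17 (adjusted p = 0.4). DBH was at 11550, 11776 and 12018 in the controls and 13014, 12624 and 12823 with sarin, all above the controls, with a difference of 0.12 ± 0.18 (adjusted p = 0.758). GCH1 overlapped between its groups, at 2789, 3185 and 3201 against 3174, 3346 and 3070. In all, 7 of the 18 probe sets had groups that did not overlap at 24 h, 3 higher and 4 lower with sarin, where 32.2% of all probe sets did so, 10.6% higher and 21.6% lower. The 3 higher ones were DBH and the SLC6A2 probe sets 216611_s_at and 217621_at, and the lower ones were DDC 205311_at, SLC18A1, SLC6A2 216610_at and MAOA 204389_at. The median difference was -0.22 over the 18 and -0.16 over all probe sets.

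The noradrenaline transporter was read differently by its own probe sets at 24 h. Probe set 215715_at gave 3668, 4165 and 4207 in controls and 3911, 3326 and 3880 with sarin, which overlap. Probe set 216611_s_at gave 2320, 2333 and 2607 against 3474, 3561 and 2886. Probe set 217621_at gave 1550, 1338 and 1565 against 1836, 2184 and 2007. The latter probe sets differed by 0.44 ± 0.24 (adjusted p = 0.333) and 0.43 ± 0.20 (adjusted p = 0.254), neither a call. Against the 3 and 48 h controls in place of the 24 h controls, 4 probe sets were called, where 6.05% of all were, 2.95% higher and 3.11% lower: 215715_at (0.67, adjusted p = 0.012), 216611_s_at (0.98, adjusted p = 0.00741) and 217621_at (1.04, adjusted p = 0.00115) were higher and SLC18A1 (-0.63, adjusted p = 0.00304) was lower. The first of these had a difference of -0.12 ± 0.18 against the 24 h controls themselves, so for SLC6A2 the answer at 24 h turned on which controls were used. None of the 18 probe sets had a sarin effect at 24 h that differed from that at 3 h (0 called, smallest adjusted p 0.572, 0 with an unadjusted p under 0.05), where 0.297% of all probe sets did.

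**Figure D2:**
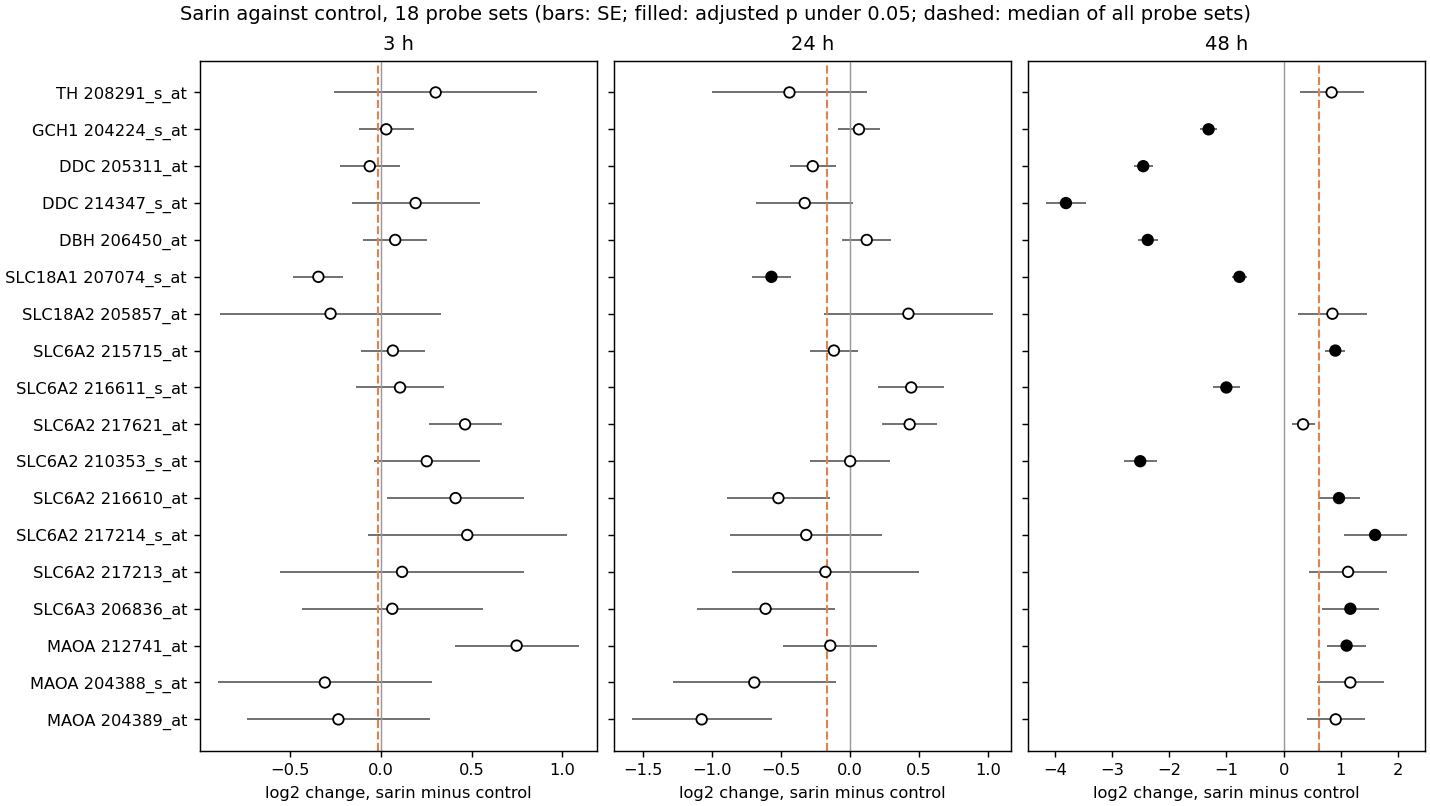
Log2 change with sarin against control at 3, 24 and 48 h for the 18 probe sets, with bars of 1 SE, filled points at an adjusted p under 0.05 and a dashed line at the median change of all probe sets. There are 0 filled points at 3 h, 1 at 24 h (SLC18A1) and 12 at 48 h, 7 to the left of 0 and 5 to the right, and those 5 turned negative with arrays scaled to spiked-in RNA.

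The untreated cells moved with time in 1 transporter. SLC6A2 probe set 215715_at was at 2080, 2981 and 2875 at 3 h, at 3668, 4165 and 4207 at 24 h and at 1867, 2233 and 2080 at 48 h, so all 3 arrays at 24 h lay above all 6 at the other times. From 24 to 48 h its log2 signal fell by 0.96 ± 0.18 (adjusted p = 0.0329), the only member called there, where 0.189% of all probe sets were called, 0.104% of them lower. That call was lost when any 1 of the 6 arrays was left out (0 called each time), with arrays centred on their median or scaled to spiked-in RNA, though the sign held in 19 of 19 alternatives. In the same comparison 15 of the 18 probe sets had a negative difference and 8 did not overlap, all lower at 48 h, where 19.3% of all probe sets did not overlap and 12.3% were lower. Those 8 were DBH, MAOA 204389_at and 6 of the 7 SLC6A2 probe sets. The median difference was -0.51 over the 18, of which 7 read the same transporter, and -0.08 over all.

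From 3 to 24 h SLC6A2 probe set 216610_at was the member called. It was at 237, 259 and 134 at 3 h and at 589, 586 and 596 at 24 h, a rise of 1.47 ± 0.38 (adjusted p = 0.0382), where 3.27% of all probe sets were called and 2.14% higher. It was above background on 2 of 3 arrays at 3 h and on 3 of 3 at 24 h, and the call was lost, for instance, under quantile normalization and with arrays centred on their median. Probe sets 215715_at (0.61 ± 0.18, adjusted p = 0.0628) and DDC 205311_at (0.58 ± 0.17, adjusted p = 0.0613) had positive differences that were not called, and their sign turned with arrays scaled to spiked-in RNA. The other DDC probe set, 214347_s_at, went the other way, lower at 24 h by 0.16 ± 0.35 (limma adjusted p = 0.839). In all, 7 probe sets did not overlap, all higher at 24 h, against 23.3% of all probe sets and 17% higher. Leaving out the second control array at 3 h gave 4 called members in this comparison, and leaving out any other of the 6 gave 0.

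DBH was at 10462, 9192 and 12133 at 3 h, at 11550, 11776 and 12018 at 24 h and at 8604, 8025 and 7687 at 48 h in untreated cells, lowest at 48 h with no overlap with either earlier time. Neither difference was called, at -0.54 ± 0.18 against 24 h (adjusted p = 0.292) and -0.38 ± 0.18 against 3 h (adjusted p = 0.454). Between 48 and 3 h 0 members were called with limma, where 0.099% of all probe sets were, and 4 had an unadjusted p under 0.05. In that comparison 3 members did not overlap, 2 higher and 1 lower, against 15.5% of all probe sets, 10.2% higher and 5.3% lower. GCH1 was at 2302, 3077 and 2831 at 48 h and DDC (205311_at) at 15194, 18540 and 16736, both overlapping their values at 24 h. SLC18A1 in untreated cells stayed within 3278 to 4742 at all times.

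**Figure D3:**
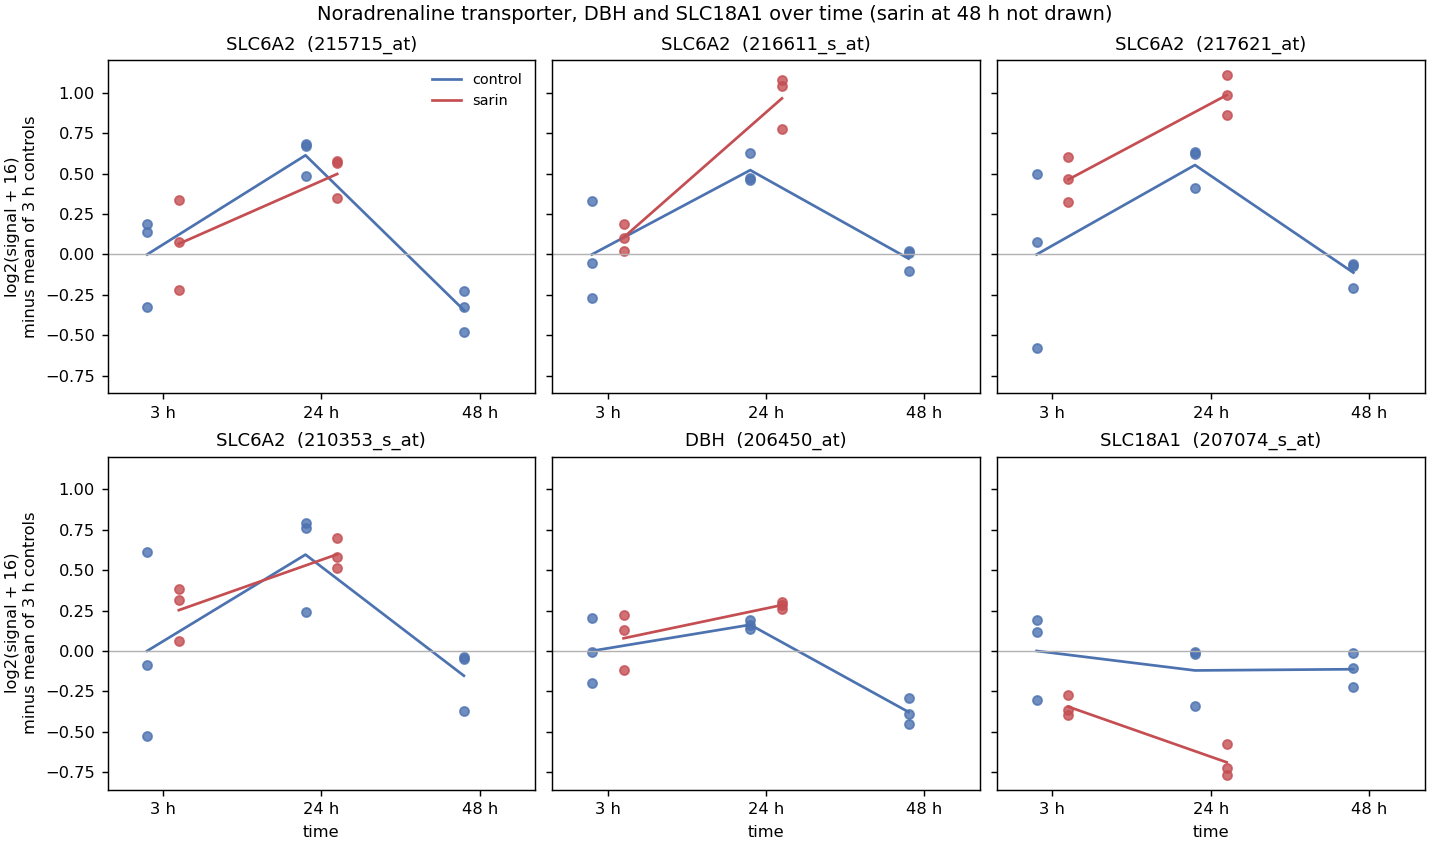
Log2(signal + 16) minus the mean of the 3 h controls for 4 SLC6A2 probe sets, DBH and SLC18A1, with a point for each array and a line through group means (untreated in blue, sarin in red, sarin at 48 h not drawn). The line of untreated means is highest at 24 h in all 4 SLC6A2 panels, and the SLC18A1 sarin points lie below the untreated ones at 24 h.

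At 48 h GCH1, DDC, DBH and SLC18A1 were lower with sarin, while TH (0.84 ± 0.56, below background) and SLC18A2 (0.85 ± 0.61) were not called. Of the 18 probe sets 12 were called, 7 lower and 5 higher, from 7 of the 9 genes, against 63.2% of all probe sets, 21.5% lower and 41.7% higher. The share called is thus near that of the whole array, and 14 of the 18 had groups that did not overlap, 7 in each direction, against 64.9% of all probe sets, 43.5% higher and 21.4% lower. The 7 lower ones kept their sign and their call in every alternative run for them. They read GCH1, DDC, DBH, SLC18A1 and SLC6A2. Beside them, the noradrenergic markers, DBH among them, summed to 72101 to 76209 on the untreated arrays at 48 h and 53806 to 63870 on the sarin arrays, and those of substrate-adherent cells to 64152 to 83800 and 31794 to 34489. Of the 34 probe sets of the latter list 17 were called higher and 6 lower, with a median change of 1.07. Of the 12 probe sets of the noradrenergic list 2 were called higher and 4 lower, with a median change of -0.09. The 4 Schwann and glial marker genes with a probe set summed to 720 to 1041 and 2082 to 2899, with 1 to 2 of them above background in both groups, and the part of these shifts was not tested.

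GCH1 was at 953, 1016 and 1316 with sarin against 2302, 3077 and 2831 in the controls, with no overlap, and fell by 1.31 ± 0.15 on the log2 scale (adjusted p = 9.42e-07). DDC probe set 205311_at was at 2813, 3088 and 3252 against 15194, 18540 and 16736, a fall of 2.45 ± 0.17 (adjusted p = 8.71e-10). These enzymes stand before and after TH in the route from cofactor to dopamine. The second DDC probe set, 214347_s_at, was at 53.4, 199 and 253 against 2240, 1903 and 2507, and since none of its sarin arrays was above background the change is a bound, at least 5.06-fold lower (adjusted p = 5.31e-08). DBH was at 1123, 1525 and 2159 against 8604, 8025 and 7687, a fall of 2.38 ± 0.18 (adjusted p = 2.9e-09).

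The noradrenaline transporter was the member whose probe sets disagreed at 48 h. Probe set 216611_s_at was at 1080, 452 and 1104 with sarin against 1702, 1686 and 1561 and fell from a mean of 1650 ± 77.2 to 879 ± 370 (SD, n = 3; limma adjusted p = 0.00159). Probe set 210353_s_at was at 102, 280 and 220, below background on all 3 sarin arrays, against 968, 1215 and 1225, which is at least 2.62-fold lower (adjusted p = 9.92e-07). Probe set 215715_at went the other way, at 3224, 3608 and 4923 against 1867, 2233 and 2080, a rise of 0.90 ± 0.18 (adjusted p = 0.000283) that turned to -1.15 (adjusted p = 0.00248) with arrays scaled to spiked-in RNA. The dimmer sets 216610_at (616, 651 and 954 against 444, 315 and 344) and 217214_s_at (1038, 692 and 386 against 245, 183 and 192) were called higher by 0.97 ± 0.38 and 1.60 ± 0.55. These too turned negative under that scaling. The call of 216610_at was lost without control replicate 2 or 3 or sarin replicate 3 (0.77 to 0.93, adjusted p 0.0745 to 0.115) and that of 217214_s_at without sarin replicate 1 (1.27, adjusted p = 0.0786), and both under quantile normalization. Sets 217621_at (0.34 ± 0.20) and 217213_at (1.13 ± 0.67) were not called. Over the 15 arrays other than sarin at 48 h 215715_at, 216611_s_at, 217621_at and 210353_s_at correlated pairwise at r 0.66 to 0.89, a description of arrays that share groups and scaling.

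The enzyme of breakdown and the dopamine transporter were called higher at 48 h on the deposited scale. MAOA (212741_at) was at 1265, 1259 and 1262 with sarin against 705, 449 and 617 in the controls, a rise of 1.10 ± 0.34 (adjusted p = 0.00944) that was not called with arrays centred on their median and turned to -0.92 (adjusted p = 0.0323) with scaling to spiked-in RNA. At 24 h the same probe set was at 584, 569 and 495 against 663, 670 and 501, and at 3 h at 848, 1126 and 806 against 959, 699 and 230, neither called. The other MAOA probe sets, 204388_s_at and 204389_at, were not called at 48 h, and lay below background on 3 of 3 sarin arrays and on 3 of 3 control arrays respectively. SLC6A3 was at 432, 204 and 210 with sarin against 95.7, 76.7 and 175 in the 48 h controls, a rise of 1.17 ± 0.50 (adjusted p = 0.0493) that turned to -0.66 under scaling to spiked-in RNA, and only 1 of the 3 arrays in each group was above background. The SLC6A3 call was also lost under quantile normalization, with array weights and without control replicate 1 or 2 or sarin replicate 1 or 3 (values 0.83 to 1.32, adjusted p 0.0502 to 0.193). At the earlier times it overlapped between groups, with 358, 257 and 102 against 243, 157 and 289 with sarin at 3 h and 354, 173 and 194 against 131, 254 and 88.1 at 24 h. SLC18A2 was below background on all 3 sarin arrays at 48 h, at 136, 306 and 50.6 against 30.7, 166 and 49.2, and was called in no comparison. At 3 h it was at 197, 75.7 and 218 in controls and 78.5, 145 and 153 with sarin, and at 24 h at 48.2, 144 and 106 against 78.6, 178 and 149, with overlap both times.

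The direction at 48 h went with the level of a probe set over the whole array. That level was taken from the same 48 h controls that enter the difference, so the 2 are not independent. Split into 10 groups by level in the 48 h controls, probe sets of the lowest group had a median log2 change of 1.35 and those of the highest group -1.11, with 90% of the highest group lower. GCH1, DDC 205311_at, DBH and SLC18A1 lie in the highest group, whose quartiles were -1.73 and -0.57. DDC and DBH, at -2.45 and -2.38, lay below the lower quartile, and GCH1 at -1.31 and SLC18A1 at -0.77 lay between the quartiles. SLC6A2 215715_at, at 0.90, lay above the upper quartile of 0.09 of its own group, the second from the top, and 210353_s_at, at -2.51, below the lower quartile of -0.98 of its group, the third from the top. The level of a probe set and its part in these changes was not tested.

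**Figure D4:**
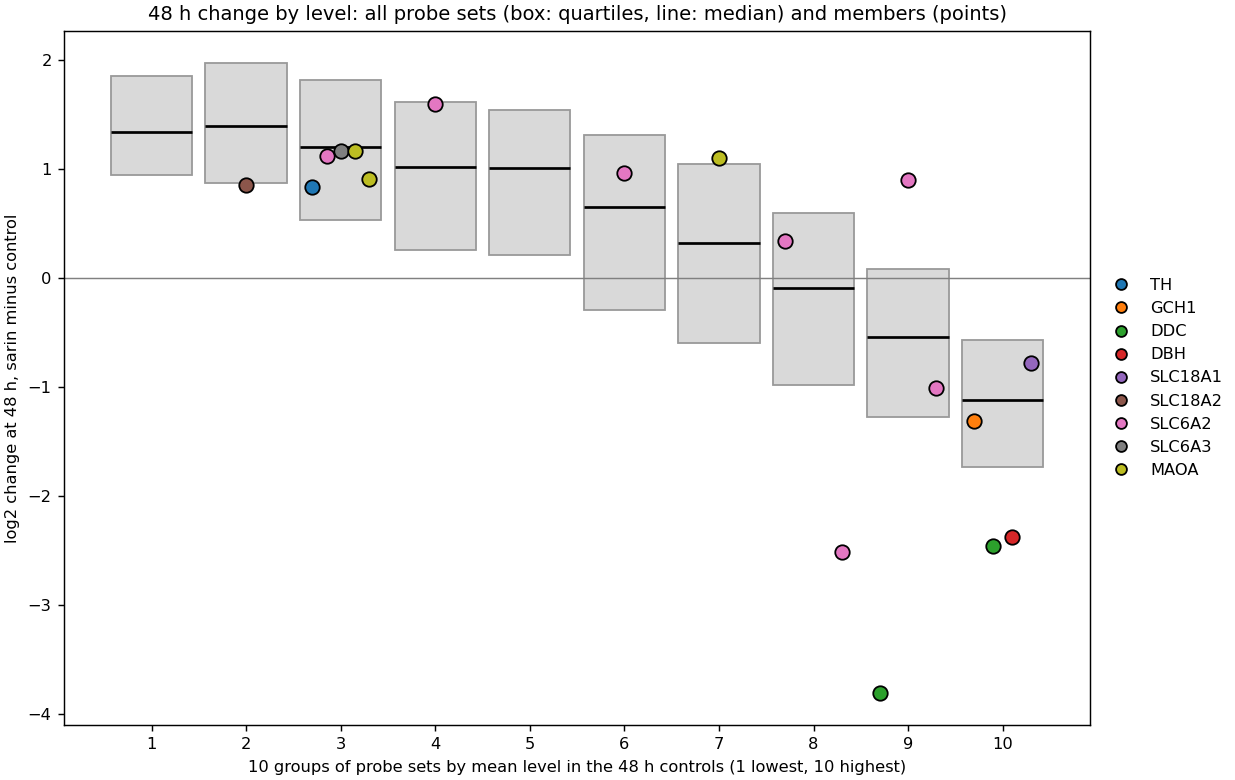
Log2 change at 48 h, sarin minus control, for all probe sets in 10 groups by level in the 48 h controls (boxes from the lower to the upper quartile, line at the median) with the 18 probe sets as points coloured by gene. The medians run from 1.35 in group 1 to -1.11 in group 10, where the DDC and DBH points lie under the box, and points above 0 turned negative with arrays scaled to spiked-in RNA where they had been called.

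Ordered over the 6 groups, the levels of DBH, DDC 205311_at and GCH1 separated in 1 place. The step down to sarin at 48 h from the next lowest group was called for each (differences of 2.38, 1.93 and 1.07 on the log2 scale), and no other pair of neighbours in their order was. The order of DBH was sarin at 24 h, control at 24 h, sarin at 3 h, control at 3 h, control at 48 h and sarin at 48 h. For SLC18A1 the 3 untreated groups stood above the 3 sarin groups, in the order control at 3, 48 and 24 h and then sarin at 3, 24 and 48 h, with no neighbours called. No neighbours were called for SLC6A2 215715_at, MAOA 212741_at, SLC6A3, SLC18A2 or TH either.

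Other genes of the pathway were counted from lists. For the tetrahydrobiopterin cofactor, 5 of 6 listed genes have a probe set, 0 were called with sarin at 3 or 24 h, and at 48 h 4 were lower and 1 higher, where 21.5% and 41.7% of all probe sets were. The lower ones were PCBD1, which helps to regenerate the cofactor (-1.75 ± 0.24), SPR, which makes the last step of its synthesis (at least 1.69-fold lower, with 0 of 3 sarin arrays above background), QDPR, which recycles it (-1.32 ± 0.22), and PTS, which acts after GCH1 (-0.56 ± 0.18), and the higher one was GCHFR, a feedback regulator of GCH1 (1.52 ± 0.39, but -0.48 with scaling to spiked-in RNA). For 6 genes that supply vesicles with copper and ascorbate or make adrenaline there were 13 probe sets. With sarin at 24 h 1 of the 13 was lower, where 1.75% of all probe sets were. This was ATP7A, a copper pump, with probe set 205198_s_at at a mean of 462 with sarin and 935 in controls (-0.99 ± 0.19, adjusted p = 0.00654), and its other probe set differed by -0.72 ± 0.22 (adjusted p = 0.0811). At 48 h 6 of the 13 were lower and 3 higher, and the lower ones include all 5 probe sets of CYB561, which passes electrons to vesicle ascorbate (209163_at -1.10 ± 0.19). Quantile normalization ended the call for 4 of the 5, 209163_at among them (-0.33, adjusted p = 0.0627), and turned 209164_s_at from -0.66 to 0.01.

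Among 6 probe sets of 5 genes of breakdown and conjugation, 0 were called with sarin at 3 or 24 h, and 3 were higher and 1 lower at 48 h, the lower one being ALDH2, an aldehyde dehydrogenase (-0.90), against 0 higher and 2 lower with scaling to spiked-in RNA. In untreated cells both probe sets of SULT1A1, a sulfotransferase, were higher at 24 than at 3 h, where 2.14% of all probe sets were. The differences were 1.39 ± 0.20 (215299_x_at, adjusted p = 0.00167) and 0.70 ± 0.18 (203615_x_at, adjusted p = 0.0414), and the latter turned to -0.09 with scaling to spiked-in RNA. It lost its call when any of 5 of the 6 arrays was left out, all but control replicate 3 at 3 h (0.64 to 0.78, adjusted p 0.0702 to 0.131). SULT1A1 has near-identical relatives, so its probe sets may read more than 1 gene. The 22 probe sets of 13 catecholamine receptor genes had 0 calls with sarin at 3 and 24 h and 11 at 48 h, all higher, a share near the 41.7% of all probe sets, against 0 higher and 6 lower with scaling to spiked-in RNA. Of those 11, 3 were above background on none of the arrays of either group. The single probe set for low-affinity uptake, SLC22A2, was called with sarin at 48 h alone, where it was higher. It was above background on 2 of 3 sarin arrays and 0 of 3 controls, so the change is a bound, at least 2.87-fold (limma adjusted p = 3.91e-05).

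Factors that act on these genes were counted over 27 probe sets of 12 genes. With sarin at 24 h 2 were higher and 0 lower, where 1.63% and 1.75% of all probe sets were. Both read GATA3, a zinc-finger factor of sympathetic neurons (209603_at 0.63 ± 0.17, adjusted p = 0.0446, and 209604_s_at 0.72 ± 0.19, adjusted p = 0.048). The remaining GATA3 probe set, 209602_s_at, above background on 9 of 9 control arrays, was not called. Both calls were lost when any 1 of the 6 arrays was left out (values 0.47 to 0.77, adjusted p 0.0541 to 0.203), and against the 3 and 48 h controls the differences were 0.32 and 0.41, not called. TFAP2B, a neural crest factor, was higher in untreated cells at 24 h than at 3 h (214451_at 0.98 ± 0.15, adjusted p = 0.00195) and lower at 48 h than at 24 h (-0.87 ± 0.15, adjusted p = 0.021). The other TFAP2B probe set, 215686_x_at, was called in neither comparison. Of all probe sets, 2.14% were called higher in the first comparison and 0.104% lower in the second. The first call was lost with scaling to spiked-in RNA (0.18, adjusted p = 0.723) and with only the groups compared (adjusted p = 0.073). The second was lost when any array but control replicate 1 at 24 h was left out (-0.96 to -0.80, adjusted p 0.0531 to 0.113), with median centring (adjusted p = 0.0934), with scaling to spiked-in RNA (0.896) and with only the groups compared (0.0893). At 48 h 11 were higher with sarin and 3 lower, or 0 and 16 with scaling to spiked-in RNA, beside 41.7% and 21.5% of all probe sets. Of the 11 higher ones, 3 were above background on none of the arrays of either group. The lower ones include PHOX2A, a homeodomain factor of noradrenergic cells (-1.94 ± 0.14, limma adjusted p = 2.33e-09), which was lower in 16 of 16 alternatives. TFAP2B 214451_at was higher by 1.32 but at -0.73 with scaling to spiked-in RNA. The other TFAP2B probe set, 215686_x_at, had a lower mean log2 signal with sarin, 7.88 against 8.38, and was not called (limma adjusted p = 0.232). It was above background on 0 of 3 sarin arrays and 3 of 3 controls. At 3 h 0 probe sets of any of these lists were called with sarin.

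Likeness of pattern was taken over the 15 arrays without sarin at 48 h, as Pearson's r of log2 signal and with no test, since arrays share groups and scaling. The 3 probe sets of other genes most like DBH were those of HAND2-AS1 (r 0.88), CYB561 (0.87) and AP1S2 (0.87). For DDC 205311_at they were MORC3 (0.93), AKAP13 (0.91) and SERPINE2 (0.90), and for SLC18A1 they were DKK1 (0.95), PGAM1 (0.92) and BLVRA (0.92). Among the members, taking the brightest probe set of each gene, DBH and SLC6A2 had the highest r, 0.80, and DBH with DDC had -0.14. The DDC probe sets had r -0.29 with each other over these arrays, so they did not follow one another outside sarin at 48 h. The MAOA probe sets had r -0.31 to 0.19. Of these, 204388_s_at and 204389_at were above background on only 7 and 4 of 18 arrays, so nothing is drawn from their r.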

How the data were processed

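Total RNA was labelled and hybridised to 1-colour arrays. The authors deposited linear signal intensity per probe set, and the submitters' processing notes name MAS5. Which version and scaling target it ran with was not given in the sources used here. From them log2(signal + 16) was computed, and group means of all 18 arrays were fitted with limma 3.58.1 in R 4.3.3 (lmFit, and eBayes with a trend, 12 residual degrees of freedom) over the 22215 probe sets that are no controls, with two-sided tests and Benjamini-Hochberg adjustment over all of them. A probe set is called at an adjusted p under 0.05. Fold changes on this scale understate those of dim probe sets, and the number of arrays limits the precision. Signals are given per array in replicate order, with SD over 3 arrays where ± follows a mean signal and SE for log2 changes. A bound takes the dim group's value on each array as the higher of its own signal and the background of that array, the percentile given above.

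The members, lists and tests were chosen with earlier results of these data known. Values on every array are given for the brightest probe set of each gene and for those called, and of the other lists up to 4 by smallest p among those called, except where a gene is named to describe its probe sets together. The files name no genome build. Alternatives changed the pseudocount (1 or 64), the level filter (upper 60%), the scaling, array weights, the arrays fitted, the reference controls and a replicate block. The fit was tested on simulated data for sarin against control at 24 h, with 200 probe sets changed. It called 0% of those changed by a log2 of 0.5, 23.9% of those changed by 1 and 69.7% of those changed by 2. Of its calls, 7.46% were false. A missing call at 24 h therefore does not show that a change of 0.5 or 1 is absent. Of the marker lists, substrate-adherent cells, Schwann and glial cells and the noradrenergic markers are described in the text. Markers of serotonergic, cholinergic and adrenaline-making cells were also read. Of the serotonergic ones, TPH1 was above background on 0 of 9 control arrays and SLC6A4 on 9. Of the cholinergic ones, CHAT was above it on 7, SLC18A3 on 9 and the ACHE probe sets on 0, 1 and 7. PNMT, for adrenaline-making cells, was above it on 6.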

Additional observations from a re-analysis of the deposited data

How the results depend on the processing

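With sarin at 3 h, and for the 24 h effect minus the 3 h effect, 0 members were called under every alternative run. The member count with sarin at 24 h (1) became 0 with arrays centred on their median or scaled to spiked-in RNA, 2 with only the groups compared, 2 without the sarin 48 h arrays and with median centring, and 4 against the 3 and 48 h controls, where SLC6A2 215715_at reversed to 0.67. The count at 48 h (12) became 6 with 1 probe set per gene, since fewer were tested, 7, all lower, with median centring, 9 (2 higher, 7 lower) with quantile normalization and 10, all lower, with spiked-in scaling. From 3 to 24 h in controls the count (1) became 3 in the upper 60% of probe sets, with array weights and without the sarin 48 h arrays, 2 with 1 probe set per gene, 2, both lower, with scaling to spiked-in RNA, 0 with quantile normalization, median centring (also without the sarin 48 h arrays) or only the groups compared, and 4 with quantile normalization without the sarin 48 h arrays. From 24 to 48 h in controls the count (1) became 0 with median centring (also without the sarin 48 h arrays) or spiked-in scaling, 3 with array weights and 3 with quantile normalization without the sarin 48 h arrays. From 3 to 48 h the count (0) became 5, all lower, with spiked-in scaling and 1 with array weights. The causes were not tested. The alternatives without the sarin 48 h arrays and with another scaling were chosen after seeing the data.

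Leaving out 1 array gave 0 to 1 called with sarin at 24 h, 10 to 14 at 48 h, 0 to 4 for 24 against 3 h in controls and 0 to 0 for 48 against 24 h. Scaling to spiked-in RNA reversed at 48 h SLC6A2 215715_at (-1.15), 217621_at (-1.68), 216610_at (-1.01) and 217214_s_at (-0.36), SLC6A3 (-0.66), MAOA 212741_at (-0.92), TFAP2B 214451_at (-0.73) and GCHFR (-0.48), and SULT1A1 203615_x_at for 24 against 3 h in controls (-0.090). Quantile normalization reversed CYB561 209164_s_at at 48 h (0.014). Scaling to spiked-in RNA moved the median of all probe sets at 48 h from 0.62 to -1.21 and that of 24 against 3 h in controls from 0.18 to -0.55, and median centring moved that at 24 h from -0.16 to 0.13 and that at 48 h to 0.06. With median centring 1429 probe sets were called at 24 h, 1292 higher and 137 lower, against 361 higher and 388 lower, and at 48 h 4813 higher and 6711 lower against 9270 and 4771. GATA3 209603_at and 209604_s_at at 24 h were called in 10 of 19 and 11 of 20 alternatives, ATP7A 205198_s_at in 19 of 20.

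Replicate numbers were not shown to pair the arrays as a whole: of 45 pairs of arrays with the same number, 2 had deviations that correlated above 0.1 (r -0.07 to 0.12). Both were pairs of controls, replicate 1 at 24 and 48 h (0.104) and replicate 2 at 3 and 48 h (0.119). Just under 0.1, replicate 1 gave 0.099 between the controls at 3 and 24 h and 0.093 between those at 3 and 48 h. Replicate 2 gave 0.033 between 3 and 24 h and 0.030 between 24 and 48 h. Replicate 3 gave -0.067 to 0.015 between control times. In the controls of each time, spiked-in signal fell from replicate 1 to 3, and background was highest in replicate 1 (151, 183 and 161). Whether the controls alone share a replicate effect was not tested. With the replicate block the count of members called was 0 at 3 h, 1 at 24 h and 12 at 48 h with sarin, and 3 for 24 against 3 h in controls, against 1 without it.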
